A study of Mus musculus with 2 samples.

Results

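Heme oxygenase, the cystine carrier of system xc-, and the glutathione and thioredoxin enzymes that NRF2 controls were followed across the cell classes of mouse glioblastoma (GBM). The members are 8 of the 27998 mouse genes measured: Hmox1, Slc7a11, Gclm, Gpx4, Gpx2, Txnrd1, Srxn1 and Nqo1. They were chosen by their levels and joint detection in these cell classes, so their levels by class are given as a description without a test. The data are 2 single-cell RNA libraries of 1 group. Each library came from the GBM of a C57BL/6 mouse aged 3 months and was made with a 10x Genomics droplet kit that counts the 3′ ends of transcripts by unique molecular identifiers (UMIs).

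Both tumors belong to the NPCTKO model, and no tumor-free brain was compared here. Neocortical progenitors were electroporated in utero with a piggyBac transposon that carried Cas9, luciferase, a fluorescent label and guides that target tumor suppressors, including Nf1 and Trp53. Per the study, 1 host was Tek-Cre;Ai14, in which Cre is driven by an endothelial and hematopoietic promoter, and the other was Tbx18CreERT2/+;Ai14, in which tamoxifen-dependent Cre is driven by a mural cell promoter. Ai14 gives tdTomato after Cre acts. Which library belongs to which host is not in the labels, so host, tumor and library cannot be told apart, and no test was made between tumor 1 and tumor 2. Nothing in the labels says more than that the libraries are separate samples. The p-values here measure only how differences between classes vary between these samples, after the difference shared by all classes is taken out.

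NRF2, encoded by Nfe2l2, is a transcription factor that KEAP1 keeps low and that accumulates under oxidative or electrophilic stress. It then drives genes that take up cystine, make glutathione, reduce peroxides and restore thiols. Slc7a11 imports cystine for glutathione synthesis, and Gpx4 uses glutathione to reduce lipid peroxides, the step that limits ferroptosis. Hmox1 is repressed by BACH1 until heme binds that factor, and it is known as a marker of heme handling and stress in macrophages.

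Tumor 1 gave 14302 barcodes with 282961884 UMIs of mouse genes, and tumor 2 gave 18596 barcodes with 295366782 UMIs. Filters left 11332 and 13108 cells, and the median cell held 17986 and 13401.5 UMIs. Classes were gated on raw marker counts, which placed 82.7% of the cells of tumor 1 and 58.2% of those of tumor 2. Glioma cells were those with at least 30 EGFP UMIs per 10,000 and at least 3 of 6 glioma markers. They could have at most 1 of 6 immune markers at 2 or more UMIs. A few markers of vascular cells, T cells, oligodendrocytes or astrocytes were allowed. There were 5213 such cells in tumor 1 and 3239 in tumor 2. The other gates used here held 446 and 54 astrocyte-like cells, 545 and 379 microglia, 156 and 138 C1q macrophages, 22 and 547 monocytes, 35 and 21 endothelial cells, 238 and 473 T cells, and 125 and 70 oligodendrocytes. A class of 2562 and 2463 cells had the glioma markers with less EGFP, and 76 neutrophils were gated in tumor 2. No marker of its own list was at 0 in any of these classes. Of the astrocyte-like cells, 47.1% and 64.8% passed the EGFP level of glioma cells, so this class held labeled cells as well. The oligodendrocyte gate set no EGFP limit either, so that class could hold labeled cells too. The libraries shared 51 barcodes, 20 of them among gated cells.

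The members lie on 6 chromosomes of GRCm38 in the GENCODE annotation, and all are protein-coding. Hmox1 is at chromosome 8, bases 75093621 to 75100589, plus strand, and Nqo1 at chromosome 8, bases 107388225 to 107403206, minus strand. Slc7a11 spans chromosome 3, bases 49892526 to 50443614, minus strand, and Gclm chromosome 3, bases 122245557 to 122270732, plus strand. Gpx4 occupies chromosome 10, bases 80047166 to 80056439, and Txnrd1 chromosome 10, bases 82833951 to 82897712, both on the plus strand. Srxn1 is at chromosome 2, bases 152105516 to 152111376, plus strand, and Gpx2 at chromosome 12, bases 76792333 to 76795554, minus strand. Gpx2 lies inside Fntb, which runs on the opposite strand, and Slc7a11 overlaps the antisense gene Gm37854. Whether the counting used strand is not given in the sources used here, so these counts could hold reads of the opposite strand. Gpx2 and Gpx4 have 1 named pseudogene each, and reads of near-identical copies are uncertain.

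Promoters of Slc7a11 and Srxn1 are shown because these genes were high in the same cells as Hmox1 in tumor 2, as described further on. Of the 8 members, 7 have an entry among the RefSeq promoters of GRCm38.p6. Both strands of the 250 bases before each start were searched for the antioxidant response element core TGACNNNGC, the activator protein 1 element TGANTCA, its extended form TGAGTCAGC, which contains it and to which NRF2 with small MAF proteins can bind, and the amino acid response element TGATGNAA of ATF4. Below are the 130 bases before each start, on the gene's own strand, with matches to TGATGNAA and TGANTCA in capitals. The Slc7a11 window is chr3:50443614-50443743, minus strand, with 2 matches to TGATGNAA, which lie 66 to 59 and, on the other strand, 47 to 40 bases before the start. The Srxn1 window is chr2:152105394-152105523, plus strand, with 2 matches to TGANTCA, 102 to 96 and 45 to 39 bases before the start, the latter as part of TGAGTCAGC at 45 to 37, whose last bases are printed in lower case.
Slc7a11: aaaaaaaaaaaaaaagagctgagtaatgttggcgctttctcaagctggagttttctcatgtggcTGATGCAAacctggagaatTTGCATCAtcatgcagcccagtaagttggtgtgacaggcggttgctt
Srxn1: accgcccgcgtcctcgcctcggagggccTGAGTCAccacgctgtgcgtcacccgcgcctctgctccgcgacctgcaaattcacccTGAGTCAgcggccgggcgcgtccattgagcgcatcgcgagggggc

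Among 32851 promoter windows of 250 bases, 3.45% held TGATGNAA, 6.75% TGANTCA, 0.347% TGAGTCAGC and 10.2% TGACNNNGC. TGACNNNGC was matched once in Gclm and once in Txnrd1. No match to these letters was found in the windows of Gpx2, Gpx4 or Nqo1. A match is a description of the letters and not evidence of binding.

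Hmox1, which opens the heme ring to give biliverdin, iron and carbon monoxide, was highest in the monocytes of tumor 2. Over the summed cells of a class, it reached 2.52 UMIs per 10,000 in the monocytes of tumor 1 (95% Poisson interval 1.93 to 3.24) and 24.99 in those of tumor 2 (24.6 to 25.3). All intervals of levels and shares cover counting error only. Microglia had 1.45 and 7.03 UMIs per 10,000, and C1q macrophages 1.24 and 8.93. EGFP-high glioma cells had 0.210 (0.202 to 0.219) and 0.818 (0.795 to 0.843), and T cells 0.0799 and 0.640. In each tumor, the 3 myeloid classes thus had more Hmox1 than glioma, astrocyte-like, oligodendrocyte and T cells.

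The Hmox1 level of tumor 2 was above that of tumor 1 in each of the 9 classes with at least 20 cells in both, though the intervals overlapped in astrocyte-like cells and oligodendrocytes. The counts are thin in places. The monocytes of tumor 1 were 22 cells, 1 of which held 60.7% of their Hmox1 UMIs, and without it their level was 1.02. Endothelial cells of tumor 2 had 12.4 Hmox1 UMIs per 10,000 against 0.311 in tumor 1. These were 21 and 35 cells, 38.1% of the UMIs of tumor 2 lay in 1 cell, and the level was 6.91 when cycling cells were left out. T cells of tumor 2 had 1.00 with doublets kept and 0.410 at a stricter gate.

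Low Hmox1 levels can be RNA from other cells that was free in the droplets. In tumor 2, glioma cells (0.818), astrocyte-like cells (0.661), oligodendrocytes (0.676), T cells (0.640), natural killer cells (0.535) and mural cells (0.380) lay within 0.380 to 0.818. In tumor 1, T cells (0.0799) were below glioma cells (0.210), and oligodendrocytes (0.455) and astrocyte-like cells (0.519) were above them. The summed level of 6 C1q macrophage markers was 1.19 and 2.20 per 10,000 in glioma cells and 1.47 and 2.98 in T cells, against 174 and 180 in C1q macrophages. The part of free RNA in the Hmox1 level of glioma cells was not tested. After each cell was thinned to 2000 UMIs, at least 1 Hmox1 UMI was found in 3.56% and 13.8% of glioma cells (median depths before thinning 18995 and 15299 UMIs) and in 2.52% and 8.46% of T cells (10378 and 8979 UMIs). In monocytes the share was 13.6% and 55.4%, and in microglia 13.1% and 44.3%.

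Slc7a11, the light chain of the cystine and glutamate antiporter, had a different order of classes. Its level was 1.97 UMIs per 10,000 in astrocyte-like cells of tumor 1 (1.89 to 2.06) and 0.642 in those of tumor 2 (0.522 to 0.781). Monocytes had 0.537 (0.286 to 0.918) and 5.40 (5.24 to 5.57), C1q macrophages 0.657 and 1.84, and microglia 0.419 and 1.65. EGFP-high glioma cells had 0.0871 and 0.0911, with intervals of 0.0817 to 0.0928 and 0.0833 to 0.0995 that overlap. Oligodendrocytes (0.0655 and 0.00914) and T cells (0.0233 and 0.0594) were lower. With doublets kept, T cells of tumor 2 had 0.109 Slc7a11 UMIs per 10,000, above glioma cells at 0.0866, and at the stricter gate the monocytes of tumor 1 had 0.965. Thus the highest of the classes in tumor 1 was astrocyte-like and, among those with cells in both tumors, monocytes were highest in tumor 2. The thinned share of cells with a Slc7a11 UMI was 1.75% and 1.91% in glioma cells, 34.6% and 18.5% in astrocyte-like cells, and 4.55% and 52.7% in monocytes, with T cells at 0.420% and 1.06%.

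Gclm, the modifier subunit of the enzyme that sets the rate of glutathione synthesis, was spread over all classes within a narrower range. Astrocyte-like cells had 1.81 and 1.75 UMIs per 10,000, oligodendrocytes 1.67 and 1.64, and endothelial cells 1.40 and 2.27, though the last was 1.10 in tumor 2 with cycling cells left out. Their intervals overlap in tumor 1 between oligodendrocytes and each of the other classes named. Glioma cells had 0.828 (0.811 to 0.845) and 1.12 (1.09 to 1.15). Microglia (0.352 and 0.943) and monocytes (0.413 and 1.45) were below glioma cells in tumor 1. In tumor 2, monocytes were above them and microglia were not.

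The peroxidases split by class. Gpx4, the phospholipid hydroperoxide peroxidase, was highest in oligodendrocytes (10.9 and 10.3 UMIs per 10,000) and astrocyte-like cells (6.72 and 10.2), whose intervals overlap in tumor 2. Glioma cells had 3.60 and 5.95, microglia 4.17 and 4.98, monocytes 4.30 and 3.73, and T cells 3.14 and 4.97. At the stricter gate the Gpx4 level of tumor 1 monocytes was 2.61, below the 3.55 of glioma cells. With mitochondrial and ribosomal protein genes out of the total, T cells had 5.25 and 7.91 Gpx4 UMIs per 10,000 and glioma cells 4.87 and 8.04. Before thinning, at least 86.4% of the cells had a Gpx4 UMI in each class with 20 or more cells other than neutrophils, where 73.7% did. Gpx2, the peroxidase of the gut epithelium, was nearly absent from tumor 1, with 5 UMIs in 4 of 11332 cells, and had 510 UMIs in 238 of 13108 cells of tumor 2. Of these, 86 lay in 42 EGFP-high glioma cells, 271 in 118 cells with glioma markers and less EGFP, and 119 in 67 cells of no class.

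Txnrd1, which reduces thioredoxin, had 1.80 and 1.23 UMIs per 10,000 in glioma cells. Monocytes had 1.12 (0.735 to 1.62) and 1.86 (1.76 to 1.96), microglia 0.461 and 1.18, and T cells 0.609 and 0.514. Glioma cells were therefore the higher of these classes in tumor 1 and monocytes in tumor 2. Srxn1, which repairs overoxidized peroxiredoxins, had 0.147 and 0.408 in glioma cells, 0.166 and 1.07 in microglia, and 0.124 and 1.91 in monocytes, where tumor 1 rests on 3 UMIs. Nqo1, a quinone reductase often used as a readout of NRF2, did not exceed 0.103 per 10,000 in any class. That value came from 16 UMIs in 54 astrocyte-like cells of tumor 2, and glioma cells had 0.0136 and 0.0207.

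**Figure D1:**
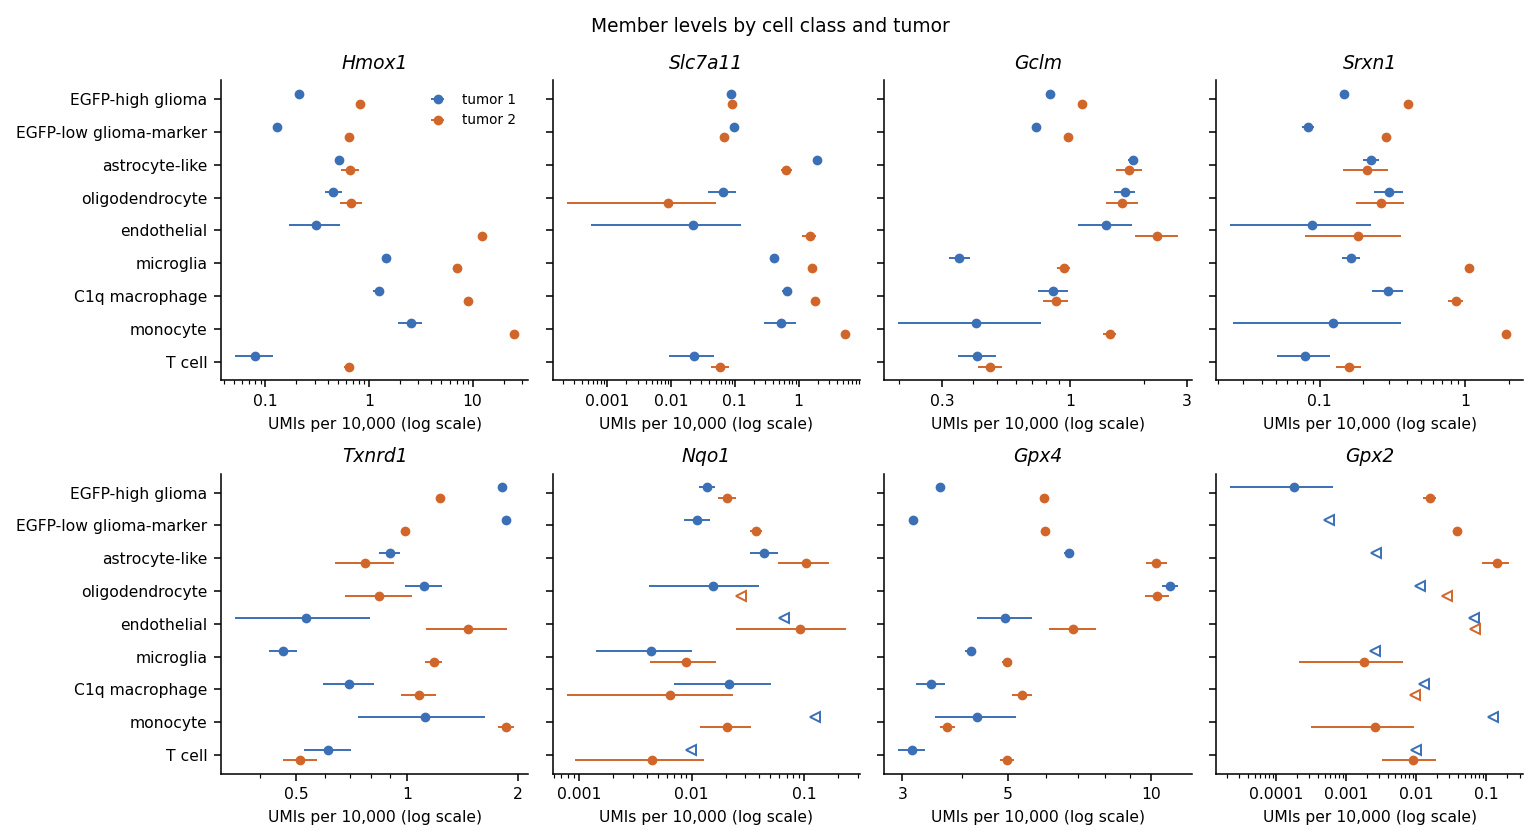
UMIs per 10,000 (log scale, a separate range in each panel) of the 8 members in 9 cell classes; points are summed cells of tumor 1 (blue) or tumor 2 (orange), bars are 95% Poisson intervals for counting error, and open triangles mark the level that 3 UMIs would give where none was counted. Hmox1 of tumor 2 peaks in monocytes at 24.99, Slc7a11 of tumor 1 in astrocyte-like cells at 1.97, and Gpx4 in oligodendrocytes.

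Part of the signal lay outside the classes. Cells of no class held 36.5% of all Hmox1 UMIs in tumor 1 and 36.1% in tumor 2, and 18.8% and 40.8% of those of Slc7a11. These cells numbered 1962 and 5479, with medians of 8042.5 and 3610 UMIs. The monocytes of tumor 2 held 30.4% of its Hmox1 UMIs.

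The next question was whether the rest of the pathway differed between the same classes. It was asked of 97 companion genes in 9 lists that contain no member: regulators, glutathione synthesis and recycling, peroxidases, glutathione transferases, the thioredoxin group, NADPH supply, heme and iron, efflux and other antioxidant enzymes, and targets of ATF4. Counts were summed per tumor and class and fitted together for 9 classes and 14444 genes with edgeR's quasi-likelihood test, with the tumor as a block and Benjamini-Hochberg adjustment over all genes tested. A gene is called higher or lower below an adjusted p of 0.05. Fold changes below are on the log2 scale with their standard error (SE) and TMM scaling.

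EGFP-high glioma cells had less of the heme and iron group and of Nfe2l2 than microglia. Of the 97 companion genes, 11 were called higher and 29 lower in glioma cells, 41.2%, while 43% of all genes tested were called (22.3% higher and 20.8% lower). Of the 8 heme and iron genes 7 were lower, 6 of them also in the plain levels of both tumors, with a median log2 fold change of -2.39 where the median over all genes was 0.09. The thioredoxin group had 6 of 13 lower and 1 higher, the peroxidase list 4 of 10 lower and 2 higher, and the ATF4 targets 3 of 13 higher and 1 lower. The medians of these lists were -0.47, -0.62 and 0.20.

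Nfe2l2 itself had 0.189 and 0.187 UMIs per 10,000 in glioma cells of tumors 1 and 2, against 3.01 and 2.15 in microglia (log2 fold change -4.63, SE 0.39, edgeR adjusted p = 2.33e-07). Fth1, the iron-storing ferritin heavy chain, had 12.2 and 18.3 against 146 and 185 (-4.34, SE 0.42). Slc40a1, the iron exporter ferroportin, showed the greatest difference among the companion genes at 0.00291 and 0.00509 against 0.231 and 0.324 (-7.02, SE 0.57). Also lower in glioma cells were Alox5 (-6.43), Ggt5 (-4.50), Osgin1 (-3.52), Atf3 (-3.37), Blvrb, which reduces biliverdin (-3.16), and Glrx (-3.14). So were Slc3a2, the heavy chain that partners SLC7A11 (-2.22, SE 0.49), and Bach1, the repressor of Hmox1 (-1.75, SE 0.39).

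Higher in glioma cells were Vldlr (log2 fold change 3.19), Ggt7 (2.64), the NADPH source Me1 (2.54), the peroxidases Gpx8 (2.47) and Gpx7 (2.16), Asns, an ATF4 target that makes asparagine (2.46), Gstt1 (2.37) and Ugdh (2.28). Me1 had 0.642 and 0.673 UMIs per 10,000 in glioma cells against 0.0607 and 0.0634 in microglia. Not called against microglia were Keap1 (-0.65, SE 0.29), Gclc (-0.82, SE 0.35), Gsr (-0.31, SE 0.50) and Atf4 (-0.07, SE 0.28). Their sign depended on the scaling. In simulated counts for glioma cells against microglia, 8.25% of 400 genes with a log2 change of 1 were recovered, pooled over 4 sets. A gene that was not called may therefore still differ. Of the simulated calls, 9.29% were unchanged genes, so some of the calls may be false. Each set held 13604 to 13628 genes, few of them changed, whereas 43% of the genes of the data were called. The simulated shares need not hold for the data.

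Scaling moved the balance of calls. With library totals in place of TMM, an alternative added after the data were seen, 38 companion genes were higher and 19 lower than in microglia. Of all genes tested, 61.9% were then called, 80.5% of them higher, and the median log2 fold change of all genes was 0.95. Of the 40 calls, 37 had the same direction in the plain levels of both tumors. The exceptions, each called lower, were Blvra, which had 0.436 and 0.367 UMIs per 10,000 in glioma cells against 0.407 and 0.612 in microglia, Acsl4 and Prdx3. In plain levels, Nfe2l2, Bach1, Fth1, Slc40a1 and Slc3a2 were lower in glioma cells than in microglia in both tumors.

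Against monocytes, 12 companion genes were higher and 28 lower in glioma cells, 41.2% of the list against 27.3% of all genes (11.2% higher and 16.1% lower). Library totals gave 24 higher and 21 lower, with 42.6% of all genes called, 73.2% of them higher. The fit without the tumor block called 14 in all, with 12.6% of all genes called. Nfe2l2 had 1.94 and 1.88 UMIs per 10,000 in monocytes (log2 fold change -3.90, SE 0.38), and Bach1 0.826 and 1.25 (-2.22, SE 0.40). The mitochondrial and peroxisomal peroxiredoxin Prdx5 had 1.56 and 2.71 in glioma cells against 17.9 and 29.0 in monocytes (-3.97, SE 0.38). Slc40a1 (-4.49), Fth1 (-4.09), Ggt5 (-3.54), Osgin1 (-3.45), Glrx (-3.21), Gpx1 (-3.14), Txnip (-2.97) and Slc3a2 (-2.20) were lower too. Gpx8 (2.36), Gpx7 (2.25), Gstt1 (2.13), Ggt7 (2.12), Me1 (2.07), Ugdh (1.27) and Idh1 (1.23) were higher. Cth, which makes cysteine from cystathionine, was also called, with no UMI in the monocytes of either tumor and 0.0324 and 0.0193 per 10,000 in glioma cells. Gsr (-1.24), Gclc (-0.77), Atf4 (-0.59) and Keap1 (-0.22) were not called. The monocytes of tumor 1 gave at most 3 UMIs of Slc40a1, Ggt5, Osgin1, Ggt7, Gpx7, Gpx8, Gstt1 and Me1, so those fold changes rest on tumor 2.

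T cells and endothelial cells gave other balances. Against T cells, 21 companion genes were higher and 15 lower in glioma cells, 37.1% of the list and 37.1% of all genes (20.3% higher and 16.8% lower). Library totals gave 39 and 7, with 46.4% of all genes called, 78.2% of them higher. The fit without the block called 11, with 17.8% of all genes called. Vldlr (3.45), Gpx3 (3.04), Txnrd3 (2.68), Cbr3 (2.59), Idh1 (2.44), Me1 (2.35), Gpx8 (2.18), Gstm5 (2.17) and Bach1 (1.10) were higher in glioma cells. Mgst2 (-7.69), Alox5 (-3.13), Osgin1 (-2.76), Glrx (-2.11), Txnip (-2.06), Mthfd2 (-1.81), Tfrc (-1.79), Slc3a2 (-1.69), Prdx6 (-1.56) and Nfe2l2 (-0.92) were lower. T cells had 1 and 3 UMIs of Alox5 and 1 and 4 of Txnrd3. Gclc (0.47), Keap1 (0.04), Gsr (-0.11) and Atf4 (-0.27) were not called. Against endothelial cells, 10 were higher and 21 lower, 32% of the list and 19.1% of all genes (8.63% higher and 10.5% lower). Library totals gave 14 and 22, with 20% of all genes called, and the fit without the block 15 in all, with 8.6%. Slc40a1 had 3.77 and 1.74 UMIs per 10,000 in endothelial cells (-9.46, SE 0.62), and the transferase Gsta4 6.68 and 6.13 against 0.109 and 0.0769 in glioma cells (-6.21, SE 0.53). Lower in glioma cells were also Osgin1 (-4.39), Abcc4 (-4.39), Mgst2 (-4.19), Tfrc (-3.34), Slc7a5 (-3.18), Atf3 (-3.00), Nfe2l2 (-2.82), Slc3a2 (-2.52) and Bach1 (-1.96). Ggt7 (3.09), Ugdh (2.29), Cbr3 (2.11), Phgdh (2.10), Asns (1.92), Psat1 (1.85), Mthfd2 (1.72) and Gstm5 (1.56) were higher. Endothelial cells had 1 UMI of Ggt7 in each tumor and 1 and 4 of Mgst2. Gsr (0.33), Gclc (-0.17), Keap1 (-0.50) and Atf4 (-0.65) were not called.

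Astrocyte-like cells, the class with the most Slc7a11 in tumor 1, had more of 3 of 11 glutathione transferases and 3 of 12 genes of glutathione synthesis and recycling than glioma cells. Of the 97 companion genes, 1 was higher and 12 lower in glioma cells, 13.4%, while 6.45% of all genes were called (2.23% higher and 4.22% lower). By library totals 0 were higher and 10 lower, with 6.7% of all genes called. Without the block 1 was called, with 0.36% of all genes. Gstm1 had 0.554 and 0.302 UMIs per 10,000 in glioma cells against 5.85 and 5.38 in astrocyte-like cells (-3.88 on the log2 scale with an SE of 0.44, adjusted p = 0.000222 by edgeR). Cbs, which joins homocysteine and serine (-3.58), Gsta4 (-3.48), Mgst1 (-2.81), Cth (-2.52), Ephx1 (-2.46), Prdx6 (-2.03), Oplah (-1.95) and Nfe2l2 (-1.59) were lower in glioma cells. Ugdh (1.44) was the gene called higher. Slc3a2 (-1.26, SE 0.48), Gclc (-0.51), Gsr (-0.32), Keap1 (-0.05), Atf4 (0.22) and Bach1 (0.86) were not called.

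**Figure D2:**
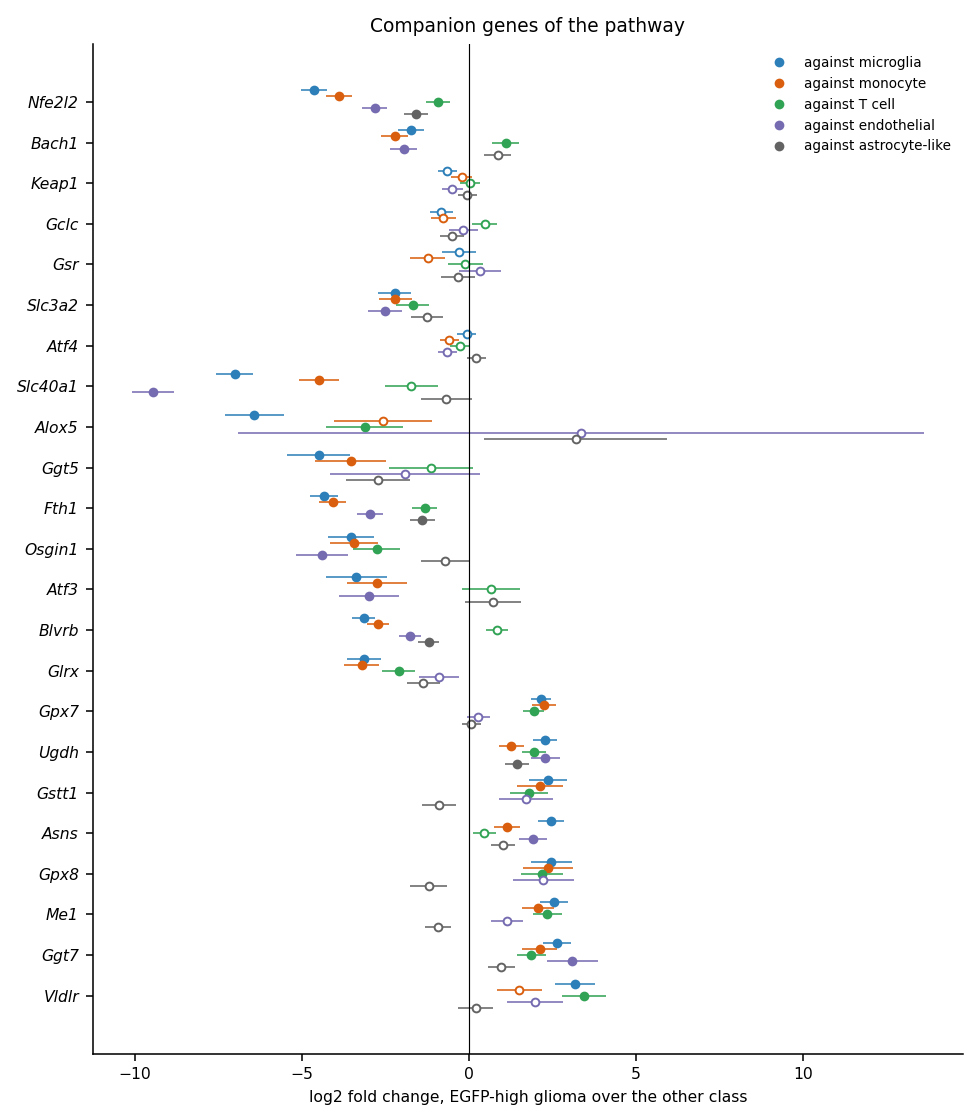
Log2 fold change of EGFP-high glioma cells over 5 other classes for the 7 fixed pathway genes and the 16 further genes named against microglia; bars are standard errors, filled points passed an edgeR adjusted p of 0.05 and open points did not. Nfe2l2 lies left of 0 against all 5 classes, and all points of Keap1, Gclc, Gsr and Atf4 are open.

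Between monocytes and microglia, the classes with much Hmox1 in tumor 2, few companion genes were called. Monocytes had 5 higher and 3 lower, 8.25% of the list against 5.93% of all genes (2.83% higher and 3.1% lower). The count was 14 by DESeq2, 13 by library totals, 5 with doublets kept and 0 without the block. Of all genes, 9.54%, 6.23%, 4.74% and 1.56% were called in these settings. In edgeR's test, 31 of the 97 were under an unadjusted p of 0.05, and the share over all genes is not given here. The monocytes of tumor 1 were 22 cells, so a gene that was not called may still differ. The microsomal transferase Mgst1 had 0.289 and 1.66 UMIs per 10,000 in monocytes against 0.0754 and 0.0911 in microglia (log2 fold change 3.03, SE 0.74, edgeR adjusted p = 0.0218). Gstm1 (1.68), Prdx6 (1.67), Prdx5 (1.26) and Txn1 (1.08) were higher in monocytes, and Slc40a1 (-2.53), Lpcat3 (-1.50) and Akr1b3 (-1.45) lower. Nfe2l2 (-0.74, SE 0.35), Bach1 (0.47, SE 0.39), Keap1 (-0.44), Atf4 (0.52), Gsr (0.93), Gclc (-0.05) and Slc3a2 (-0.02) were not called.

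States within the EGFP-high glioma cells give contrasts that did not choose the members, so the members were tested there. Cycling cells had at least 5 of 8 cycling markers and hypoxic cells at least 4 of 10 hypoxia markers, and cells that passed both gates were left out. Both states are deeper than the class, with medians of 28565 and 24989.5 UMIs in cycling cells and of 34534 and 27401 in hypoxic cells. In cycling against other glioma cells, 0 of 8 members were called by edgeR, 0 were under an unadjusted p of 0.05, and DESeq2 also called 0. Of all 15024 genes 3.35% were called. Member fold changes ran from -0.86 for Gpx2 to 0.40 for Gclm. Among the companion genes, Mthfd2, a mitochondrial folate enzyme, was called, with 0.673 and 0.840 UMIs per 10,000 in cycling cells against 0.233 and 0.389 (log2 fold change 1.40, SE 0.28, edgeR adjusted p = 0.00497). This list's background is the same 3.35%, of which 3.02% were higher.

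Hypoxic glioma cells likewise gave 0 of 8 members called by edgeR and 0 by DESeq2. Just 1 of 15024 genes was called, 0.00666%, so this contrast passed almost nothing. Of the members, Hmox1 and Gpx2 were under an unadjusted p of 0.05 in edgeR's test, and 1 member was in DESeq2's. Hmox1 had 0.775 and 1.54 UMIs per 10,000 in hypoxic cells against 0.159 and 0.819 in other glioma cells (1.67 on the log2 scale, SE 0.74, adjusted p = 1.0 by edgeR). It was higher in hypoxic cells of both tumors. In tumor 1, 1 of the 222 hypoxic cells held 58.5% of their Hmox1 UMIs. Without cells at or over 20 Hmox1 UMIs per 10,000, the levels were 0.324 against 0.159 in tumor 1 and 1.33 against 0.806 in tumor 2. Gpx2 had 0 UMIs in both states of tumor 1 and 0.0863 against 0.0104 per 10,000 in tumor 2 (2.96, SE 1.11, edgeR adjusted p = 1.0). The others lay between -0.14 for Txnrd1 and 0.99 for Slc7a11. No companion gene was called, and 3 were under an unadjusted p of 0.05. On simulated counts at this design, 61.2% of genes changed 4-fold and 5% of those changed 2-fold were recovered. In such counts, most changes of 2-fold would thus not be detected.

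Gpx2 in tumor 2 was concentrated where the hypoxia gate met a second gate, at least 4 of 5 cartilage matrix genes, Col2a1 and Mgp among them. Over both glioma classes, the 611 cells that passed both gates had 0.113 Gpx2 UMIs per 10,000 (0.0993 to 0.128), from 249 UMIs in 77 cells. Hypoxic cells without the cartilage gate had 0.0109 (0.00439 to 0.0225), cartilage cells without the hypoxia gate 0.0115 (0.00889 to 0.0147), and cells with neither 0.00895 (0.00630 to 0.0123). The intervals of the last 3 overlap. In tumor 1, 53 glioma cells passed both gates and had 0 Gpx2 UMIs (upper Poisson bound 0.0142). The cells are from 1 library, the gates overlap with depth (median 32380 UMIs where both passed and 12672.5 where neither did), and the cartilage gate was combined with the hypoxia gate after values were seen, so no test was made.

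**Figure D3:**
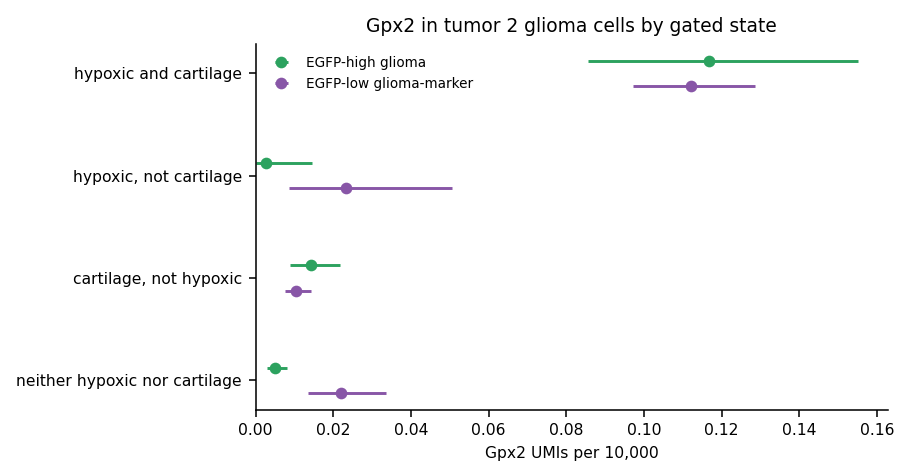
Gpx2 UMIs per 10,000 (linear axis from 0) in glioma cells of tumor 2 by the hypoxia and cartilage gates, for EGFP-high cells (green) and cells with less EGFP (purple); bars are 95% Poisson intervals. Cells that passed both gates had 0.117 and 0.112 in the EGFP classes, above each of the other groups.

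The Hmox1 of tumor 2 monocytes was unevenly shared among cells. Of 547 monocytes, 182 had at least 20 Hmox1 UMIs per 10,000, 33.3% (exact binomial interval 29.3 to 37.4), and they held 92.6% of the Hmox1 UMIs of the class. The median monocyte had 3.64 and the highest 264. The same threshold, set after the distribution was seen, was passed by 39 of 379 microglia (10.3%) and 25 of 138 C1q macrophages (18.1%) of tumor 2. In tumor 1 it was passed by 5 of 545 microglia, 1 of 22 monocytes and 0 of 156 C1q macrophages. Glioma cells passed it in 2 of 5213 and 5 of 3239 cells, and T cells in 0 of 238 and 2 of 473.

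**Figure D4:**
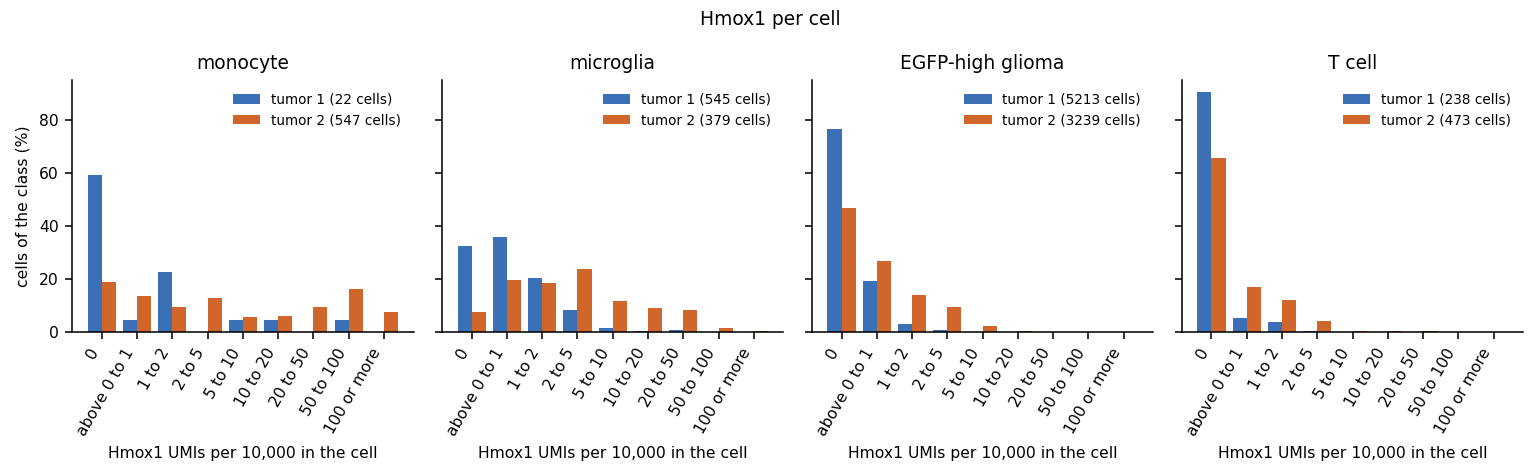
Share of cells (%) by their Hmox1 UMIs per 10,000, in bins of unequal width, for 4 classes of tumor 1 (blue) and tumor 2 (orange). Monocytes of tumor 2 spread over the whole range with 33.3% at 20 or more, while most glioma and T cells lie at 5 or below.

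Cells above and below the threshold were compared within the monocytes of tumor 2, as sums of 182 and 365 cells of 1 library, without a test. The members were chosen in part by joint detection in these classes, so their rise with Hmox1 is a description only. Its degree was unequal. Gclm had 3.55 UMIs per 10,000 in the Hmox1-high and 0.531 in the other monocytes (6.68-fold), Srxn1 4.19 and 0.911 (4.60-fold), Slc7a11 9.68 and 3.52 (2.75-fold), and Txnrd1 3.18 and 1.27 (2.50-fold). Gpx4 did not share this, at 3.48 and 3.83 (0.909-fold). Depth, genes detected and doublet scores were close in both sets. Their medians were 12791 and 13130 UMIs, 2787 and 2899 genes, and scores of 0.127 and 0.121. Col2a1, of the cartilage gate for glioma cells, had 0.144 and 0.697 UMIs per 10,000, picked after its values were seen. Whether free RNA of glioma cells differed between the sets was not tested. The hypoxia gate was passed by 13.7% of the Hmox1-high and 34.8% of the other monocytes, and its part in these folds was not tested.

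Some companion genes were also higher in the Hmox1-high monocytes. Their lists were chosen with earlier results of these data known. Of 84 companion genes with at least 20 UMIs, 15 were at least 2-fold higher, 17.9%, against 2.17% of 9827 genes, and 2, Me1 (0.469-fold) and the transferrin receptor Tfrc (0.493-fold), were at least 2-fold lower against a background of 10.3%. The median fold was 1.12 over the companion genes and 0.862 over all genes. Thresholds of 10 and 40 UMIs per 10,000 each gave 16 higher. Glutathione synthesis and export were represented by Gclc (4.53-fold), Gss (4.59-fold), Gsr (2.71-fold) and Abcc1 (5.60-fold). Prdx1, the peroxiredoxin that SRXN1 repairs, had 77.2 and 15.7 UMIs per 10,000 (4.90-fold). Osgin1 (4.38-fold), Sqstm1, which sequesters KEAP1 (3.18-fold), Gstm1 (2.95-fold), Pgd (2.55-fold), Mafg (2.43-fold) and Bach1 (2.39-fold) belong to the same set. So did genes of heme and iron: Slc40a1 (7.30-fold), the heme transporter Slc48a1 (2.20-fold), Blvrb (2.08-fold) and the ferritin light chain Ftl1 (2.05-fold, 183 and 89.4 per 10,000). Nfe2l2 itself was at 0.682-fold and Keap1 at 1.16-fold. The 7 monocyte markers of the gate ran from 0.843-fold for Ccr2 to 1.64-fold for Fn1. Of the 6 C1q macrophage markers, C1qb (0.618-fold), C1qc (0.638-fold) and C1qa (0.686-fold) were lower, Csf1r (1.11-fold) and Ms4a7 (1.90-fold) higher, and Mrc1 had 4 UMIs in all. Other genes of these cells differed as well, among them Spic (5.92-fold), Cd36 (4.86-fold), Mmp12 (3.71-fold), Il1b (0.243-fold) and the cycling gene Top2a (0.312-fold), picked after their values were seen. Their part in the folds of the companion genes was not tested.

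**Figure D5:**
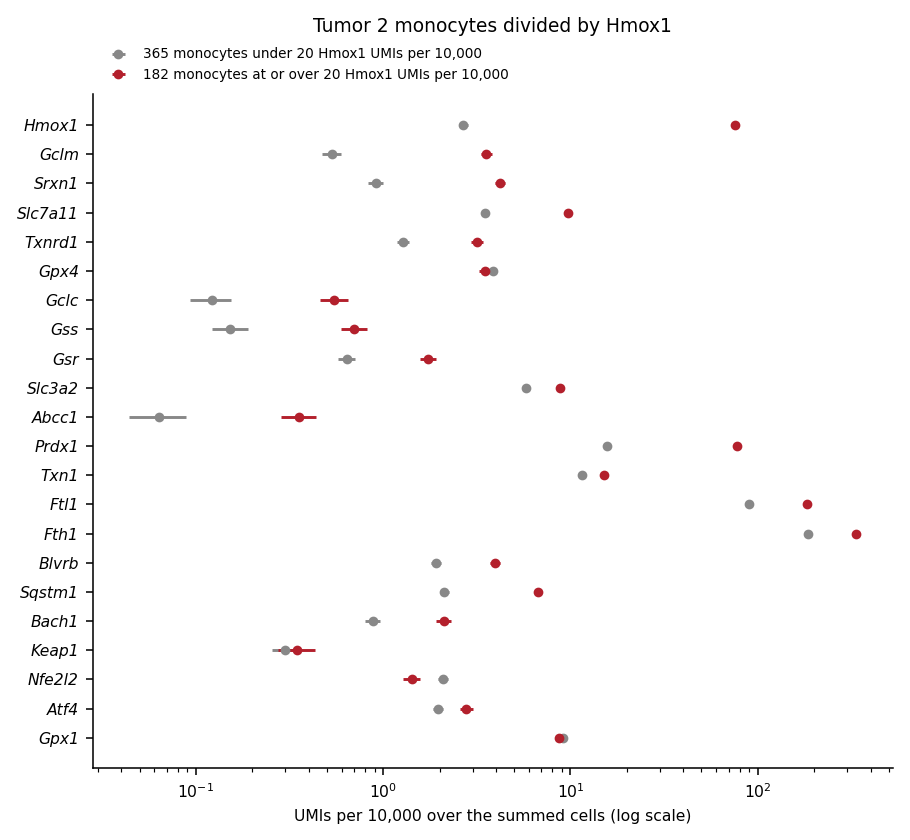
UMIs per 10,000 (log scale) over the 182 monocytes of tumor 2 at or over 20 Hmox1 UMIs per 10,000 (red) and the 365 under it (grey) for members and companion genes; bars are 95% Poisson intervals for counting error. Gclm, Srxn1, Gclc, Gss, Abcc1 and Prdx1 lie over 4-fold higher in the red set, while Gpx4, Gpx1 and Keap1 nearly coincide.

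The same threshold was applied to the microglia and C1q macrophages of tumor 2, where folds were smaller than in monocytes for some genes and larger for others. In microglia, 11 of 89 companion genes were at least 2-fold higher against 2.98% of all genes and 2 at least 2-fold lower against 2.88%, with Gclm at 3.82-fold, Gclc at 3.32-fold, Srxn1 at 2.33-fold and Prdx1 at 2.11-fold among the members and companions. In C1q macrophages, 12 of 72 were higher against 3.35% and 3 lower against 5%, with Srxn1 at 3.47-fold, Slc7a11 at 3.44-fold, Bach1 at 3.14-fold and Gclm at 2.20-fold among them. These rest on 39 and 25 cells.

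Joint detection was part of how the members were chosen, and its values are given as a description. Each cell was thinned to 2000 UMIs, and the number of cells with both genes was set against the number expected from the single shares. In tumor 2 monocytes, Hmox1 was found with Gclm in 92 cells where 55.9 were expected, a ratio of 1.64. The ratio was 1.46 for Hmox1 with Srxn1, 1.25 for Hmox1 with Slc7a11, 1.83 for Gclm with Srxn1, 1.70 for Txnrd1 with Srxn1 and 1.65 for Txnrd1 with Gclm. Pairs of Gpx4 with the other members had ratios of 0.929 to 1.07 in these cells. In microglia of tumor 2, Txnrd1 with Srxn1 had 1.75 and Hmox1 with Gclm 1.44. Glioma cells had 1.08 and 1.10 for Txnrd1 with Gclm and 0.850 and 0.971 for Hmox1 with Gclm. For Slc7a11 with Gclm the ratios in glioma cells were 1.80 and 1.37, from 24 and 15 cells.

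The few glioma cells with a Slc7a11 UMI after thinning, 90 in tumor 1 and 59 in tumor 2, differed from other glioma cells in some of the 9 companion lists. Their summed level of the glutathione synthesis list was 7.56 and 6.44 UMIs per 10,000 against 2.81 and 4.02 in glioma cells without it, ratios of 2.68 and 1.60. For the ATF4 targets the ratios were 1.53 and 1.36, for the heme and iron list 1.27 and 1.14, and for NRF2 regulators 1.41 and 1.16. Glutathione transferases (1.76 and 0.957), the thioredoxin group (1.13 and 0.864), NADPH supply (0.988 and 1.00), efflux and other enzymes (0.909 and 1.07) and peroxidases (0.855 and 0.908) were not higher in both tumors. After thinning to 4000 UMIs, the ratios for glutathione synthesis were 2.13 and 1.26. Glioma cells with a Hmox1 UMI had ratios of 1.51 and 1.19 for glutathione synthesis. Cells are not replicates, and these ratios carry no test.

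By likeness of profile, the genes nearest to each member were found from Pearson's r of log2 values of depth-scaled counts over 18 sums (9 classes in 2 tumors), among 14444 genes. The sums of a tumor share a library, and r is given as a description. Hmox1 was most like Plin2 (0.931), a lipid droplet protein, Chmp4b (0.928) and Ninj1 (0.908). Srxn1 was most like its substrate's gene Prdx1 (0.902), then Vdac2 (0.887) and Depdc7 (0.845). Gpx2 was most like Fgf21 (0.970), Aoc1 (0.947) and Dynlrb2 (0.938), but 11 of its 18 sums held no Gpx2 UMI, 4 held 1 to 6, and of the 3 others, all of tumor 2, the astrocyte-like sum rests on 22 UMIs in 1 cell. Nqo1 was most like A2m (0.892), Wdr31 (0.891) and Fuom (0.878). Gpx4 had Tex264 (0.891), Gm44386 (0.879) and Hagh (0.877), and Slc7a11 had Pla2g7 (0.831), Hacd4 (0.827) and Eepd1 (0.826). Gclm had Il17rc, Selm and Mgst3, each at 0.814, and Txnrd1 had Zfp821 (0.765), Mettl6 (0.752) and 4930589L23Rik (0.730). No 2 members shared a nearest gene.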

How the data were processed

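Single cells of 2 mouse GBM samples were measured by 10x 3′ RNA sequencing. The authors deposited raw UMI counts per gene and barcode, made with Cell Ranger 4.0.0 on mm10 (GRCm38) per the submitters' notes, without normalization. Barcodes with under 500 genes, 20% or more mitochondrial or 5% or more hemoglobin UMIs were left out, as were the highest Scrublet scores (scanpy 1.11.5; 0.8% per 1000 barcodes), since its own threshold marked 0 and 117. Classes were gated on detected markers. Transgenes entered no total or test. Member levels are UMIs per 10,000 of mouse genes with exact 95% Poisson intervals. Class sums with at least 20 cells per tumor were tested with edgeR 4.0.16 (filterByExpr, TMM, glmQLFit) in R 4.3.3, with a tumor block. Each tumor is 1 animal that gave every class of its library, and the difference between the tumors correlated across genes at over 0.1 in all 36 pairs of 9 classes (0.202 to 0.750). DESeq2 1.42.0 was an alternative. Tests were run on simulated data first. For EGFP-high glioma cells against microglia, 62.5% of genes with a simulated log2 change of 2 were recovered, and 8.25% at a change of 1. Of the calls in that simulation, 9.29% were unchanged genes, above the share that the adjusted threshold aims at. For hypoxic against other glioma cells this share was 4.68%. The simulated sets changed few genes and otherwise gave all classes of a tumor the same mean, unlike the data, so these shares need not hold there. No such values are given for the other contrasts.

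The members and lists were chosen with earlier results of these data known. Gate thresholds, the class with less EGFP, the Hmox1 threshold of 20, library totals as scaling and levels without the top cell or without cells over that threshold were chosen after the data were seen. Named companion genes were Nfe2l2, Keap1, Bach1, Gclc, Gsr, Slc3a2 and Atf4 always, and in each direction the 8 with the largest fold changes among those called with the same sign in both tumors. Depth per cell limits members of low level: 3 UMIs stand for 0.000273 per 10,000 in the glioma cells of tumor 1 and for 0.124 in its monocytes.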

Additional observations from a re-analysis of the deposited data

Results flagged for a closer look

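Slc7a11 in neutrophils lay outside the comparisons, since tumor 1 had no gated neutrophil. The 76 neutrophils of tumor 2 had 9.76 Slc7a11 UMIs per 10,000 (8.74 to 10.9), above the 5.40 of its monocytes, and 86.8% of them had at least 1 UMI. They also had 7.62 of Hmox1 and 1.96 of Srxn1.

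Gpx2 was also counted in cells that no gate placed, again in tumor 2, with 119 UMIs in 67 of 5479 such cells. These UMIs are 23.3% of the Gpx2 UMIs of that library, and tumor 1 had 3 in 2 of its 1962 such cells.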

How the results depend on the processing

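Of 73 counts of called genes, 8 moved by over 1.5 times. The tumor block pairs the classes of a tumor, which come from 1 library. Without it, the called companion genes were 27 against microglia, 14 against monocytes, 11 against T cells and 15 against endothelial cells. Of all genes, 23%, 12.6%, 17.8% and 8.6% were then called. The companion count was 1 against astrocyte-like cells (0.36% of all genes) and 0 between monocytes and microglia (1.56%). That last contrast gave 14 by DESeq2's Wald test (9.54% of all genes), 13 by library totals (6.23%) and 5 with doublets kept (4.74%). Calls for the members within glioma cells were 0 in each of the 10 settings run for either state.

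Of 1276 values of single genes, 1165 kept their direction and side of the threshold, 76 lost and 10 gained a call, and 25 turned their sign, none of them called in the main fit. Against microglia, library totals gave Keap1 0.21, Gclc 0.0332, Gsr 0.55 and Atf4 0.80, and Atf4 was also 0.0081 with no filter on low counts, 0.0439 without the block and 0.0027 with doublets kept. Keap1 was 0.37 against monocytes by library totals and -0.0189 against T cells at the stricter gate. Against T cells library totals gave Gsr 0.52 and Atf4 0.35. Between monocytes and microglia, Gclc was 0.15 by library totals and 0.0689 with cycling cells left out, and Slc3a2 was 0.0231 with DESeq2 size factors, 0.0061 by its Wald test, 0.0756 without the block, 0.25 by library totals, 0.0288 with doublets kept and 0.20 with cycling cells left out. In cycling glioma cells, Slc7a11 was 0.11 at the stricter gate, Gpx2 0.0358 with doublets kept, and Gpx4 -0.0688 with DESeq2 size factors, -0.0689 by its Wald test, -0.0062 with no filter and -0.0570 by library totals. The cause was not tested.

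Of 672 member levels under alternatives, 154 moved beyond their counting interval and 24 by over 1.5 times. Without thinning or after thinning to 4000 UMIs, 129 of 192 shares of cells with a member's UMI moved beyond their counting interval. In these settings, 56 of 170 joint detection ratios crossed 1, so their direction turned. At 4000 UMIs, 27 of 108 differences in list level between glioma cells with and without a member changed sign. Of 257 single-tumor values of genes, 15 had no value of the other tumor beside them, since a class held at most 3 UMIs there. Of these 15, 14 are values without tumor 1. The rule used could not mark a gene with values in both tumors as moved, so it shows no agreement between the tumors. Leaving out 1 tumor leaves no residual degrees of freedom, so single-tumor values carry no test. The stricter gate left too few cells for the endothelial and monocyte contrasts, and leaving out cycling cells or those at 10% or more mitochondrial UMIs left too few endothelial cells. Of the classes tested, depth limits the monocytes of tumor 1 and both sets of endothelial cells most.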

Other observations

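Beyond the companion lists, the monocytes of tumor 2 with at least 20 Hmox1 UMIs per 10,000 differed from the other monocytes in further genes, which were picked after their values were seen and carry no test. Higher in the Hmox1-high cells were the chemokine Cxcl3 (0.895 and 0.0559 UMIs per 10,000), the prostaglandin reductase Ptgr1 (9.78-fold), Spic, a factor of iron-recycling macrophages (5.92-fold), the scavenger receptor Cd36 (4.86-fold), the lysosomal lipase Lipa (4.60-fold), Slpi (3.88-fold) and Mmp12 (3.71-fold). Lower were Plet1 (0.086-fold), the cytokine Il1b (0.243-fold, 5.12 and 21.1 per 10,000), Socs1 (0.217-fold), Cxcl10 (0.295-fold) and the cycling genes Ube2c (0.289-fold) and Top2a (0.312-fold).

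The cartilage collagen Col2a1, a gene of the cartilage gate for glioma cells, was lower in the same cells at 0.206-fold, from 34 and 374 UMIs. The part of free RNA or doublets in these counts was not tested.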
